A study of Rattus norvegicus with 7 samples.

Results

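Rat lenses that had been kept in galactose and then received glutamate were compared with lenses kept in galactose alone. The rule took the 2 Glutamate arrays and the 3 Galactose arrays, 5 of the 7 arrays of the study, and every probe with a gene in the platform annotation and a log2 signal above 5 in at least 1 of the 5 arrays. The Glutamate lenses spent 6 days in medium with 30 mM galactose and had 20 mM glutamate added for the final 3 days. The Galactose lenses were cultured for 6 days in medium with 30 mM galactose and no glutamate. All 5 came from male Sprague Dawley rats, at 6 weeks of age according to the methods, and were kept outside the body as whole lenses in M199 medium with albumin, so that no eye, vessel or immune system surrounded them. Glutamate was given as its sodium hydrogen salt in sterile water and the other lenses received sterile water, so the amino acid cannot be told apart from the added sodium and osmotic load. According to the paper, the arrays used lenses whose opacity had fallen after glutamate was added. An effect of glutamate therefore cannot be told apart from a choice of lenses that cleared. Within that limit, the design asks which genes in a lens already exposed to galactose differ once glutamate is present.

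The lens consists of 1 layer of epithelial cells over a mass of long fibre cells, which are packed with crystallins and lose their nuclei as they mature. In galactose, aldose reductase makes galactitol, which stays in the cell and draws in water, and the lens of young rats turns opaque. Glutathione, the main antioxidant of the lens, is made from glutamate, cysteine and glycine in a pair of steps, by glutamate-cysteine ligase (Gclc and Gclm) and glutathione synthetase (Gss). Glutamate can also enter the citric acid cycle as 2-oxoglutarate or be turned into glutamine and proline.

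Whole lenses were ground, and 1 GeneChip Rat Gene 2.0 ST array was hybridised per sample. Of 36685 probes, 19086 have a gene, and 4949 of these passed the signal limit, 4765 with exactly 1 gene. Median signals over the 4949 probes (log2) were 5.76 and 5.66 in Glutamate 1 and 2, and 5.77, 5.82 and 5.88 in Galactose 1 to 3. The limit itself was passed in Galactose arrays alone by 546 probes and in Glutamate arrays alone by 225, and for these the limit favours a difference in that direction. All 6 lens markers with a probe of their own (Bfsp1, Crygs, Foxe3, Lim2, Mip and Pax6) were above 5 in at least 1 array, Foxe3 in the Glutamate arrays alone, and their median was between 11.4 and 11.5 in the Glutamate arrays and between 11.1 and 11.2 in the Galactose arrays. None of the 11 retina, 11 ciliary body and iris pigment, 6 vessel endothelium and 2 erythrocyte markers was above 5 in any array. Of 14 leukocyte markers only Cd68 was, at 5.16 at most, and of 9 fibroblast and smooth muscle markers only Des. In RNA of a whole lens, fewer cells of a type and less RNA per cell cannot be told apart. Whether the arrays stand for separate animals is stated nowhere, so a p reflects the spread among these samples, which may be technical.

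No probe differed between the groups after correction. With limma, 0 of 4949 probes (0%) had an adjusted p under 0.05, and the smallest adjusted p was 0.132. At an unadjusted p under 0.05, 612 probes (12.4%) were called, 106 (2.14%) higher and 506 (10.2%) lower in Glutamate. The Glutamate arrays lay outside the range of the Galactose arrays, both on the same side, in 1489 probes (30.1%), of which 368 (7.44%) were higher and 1121 (22.7%) lower. Group means were at least 2-fold higher in Glutamate in 30 probes (0.606%) and at least 2-fold lower in 121 (2.44%). The Glutamate mean was above the Galactose mean in 33.9% of probes and below it in 66.1%. That tilt depended on the scaling and on the signal limit. The median difference of all tested probes, Glutamate minus Galactose, was -0.12 on the log2 scale as deposited. It was 0.02 after quantile normalization was applied again to the 4949 tested probes, when the share of higher means was 52.2%. That step gives the arrays the same distribution over these probes, so a median near 0 follows from it. Over all 19086 probes with a gene, without a signal limit, the median as deposited was 0.00 and the share 50.7%. Differences below are given as deposited, and a gene list has its median set beside the shift of -0.12 of the tested probes. The tilt was strongest among bright probes, where the fifth with the highest mean signal had a median difference of -0.22 and 27.8% higher means. After the second quantile normalization, medians lay between 0.01 and 0.03 at every level of signal.

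**Figure D1:**
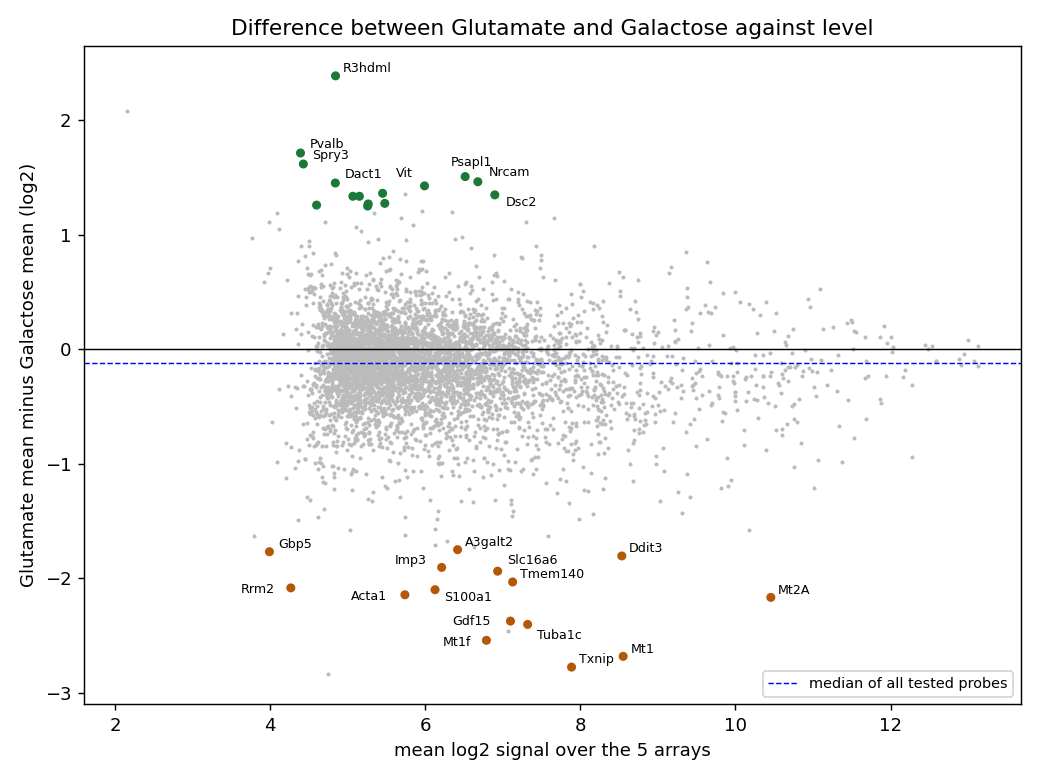
Difference between the Glutamate and Galactose means (log2, vertical axis) of all 4949 tested probes against the mean log2 signal of the 5 arrays (horizontal axis). Coloured points are the 15 genes with the largest differences in each direction among those with an unadjusted p under 0.05 and no overlap of the arrays, and the dashed line is the median of all probes at -0.12.

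The pair of Glutamate arrays was less alike than the Galactose arrays were. Glutamate 1 and 2 were at least 2-fold apart in 315 probes (6.37%), against 159 for Galactose 1 and 2, 179 for Galactose 1 and 3 and 35 for Galactose 2 and 3. Between a Glutamate and a Galactose array the number was 267 to 397. In 47.5% of probes both Glutamate arrays lay below the Galactose mean, in 21.3% both lay above it, and in 30.9% they lay on opposite sides. Of the 103 1-gene probes that were higher at an unadjusted p under 0.05 without overlap, 35 were above 5 in no Galactose array and 11 had Glutamate arrays at least 2-fold apart. Of the 478 lower ones, 131 were above 5 in no Glutamate array and 26 had Glutamate arrays at least 2-fold apart. After the second quantile normalization all 103 and all 478 kept their sign, and 103 and 263 of them stayed at an unadjusted p under 0.05. That step raised the median difference of all tested probes from -0.12 to 0.02, which favours the higher probes and works against the lower ones. The probes were also chosen from these same arrays, so these counts are no separate test.

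**Figure D2:**
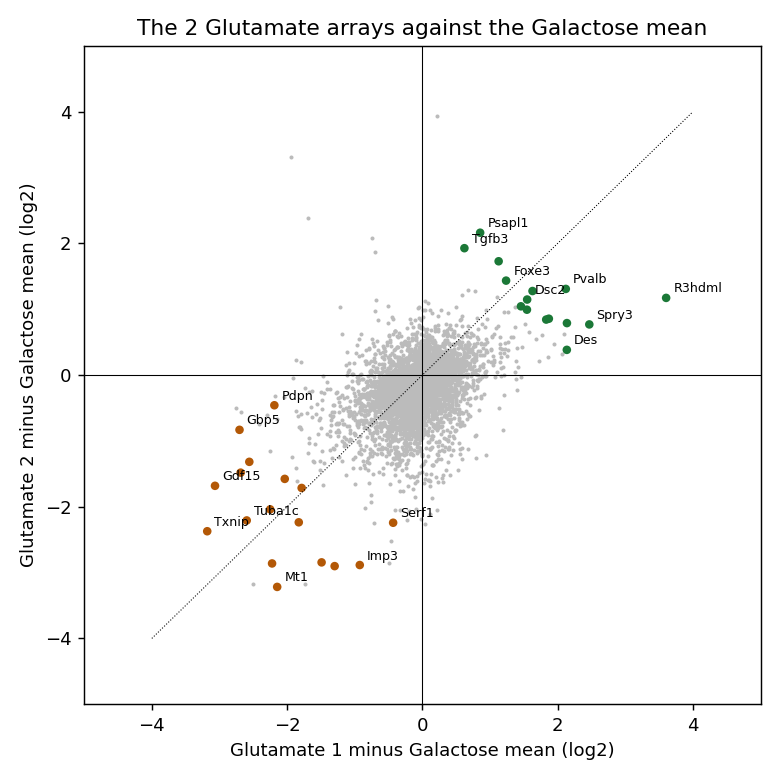
Each tested probe in Glutamate 1 (horizontal axis) and Glutamate 2 (vertical axis), as log2 difference from the mean of the 3 Galactose arrays, with equal values on the dotted line. Genes with the largest or least even differences are coloured, green where higher in Glutamate and brown where lower, such as R3hdml, far higher in Glutamate 1 than in Glutamate 2.

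Among genes on a probe of their own with an unadjusted p under 0.05, Txnip had the largest difference. It encodes thioredoxin-interacting protein, which binds thioredoxin and whose transcription follows glucose supply. Its log2 signal was 5.82 and 6.63 in the Glutamate arrays, against 8.08, 9.61 and 9.31 in the Galactose arrays. Both Glutamate arrays were below every Galactose array, by 2.78 on the log2 scale between the means (6.85-fold, standard error 0.50, adjusted p = 0.205 from limma). A relative of Txnip in the arrestin family, Arrdc3, was at 6.87 and 7.38 in Glutamate, against 7.97, 8.44 and 8.40 in Galactose, a difference of -1.15 (standard error 0.24, adjusted p = 0.207). Lcn2, lipocalin 2, had a still larger difference of -2.84 (adjusted p = 0.439) and is named after its values were seen. Lcn2 read 3.38 and 2.71 in Glutamate and 4.52, 8.77 and 4.37 in Galactose, so Galactose 2 lay far above the other Galactose arrays, which were themselves above both Glutamate arrays.

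Metallothioneins, small cysteine-rich proteins that bind zinc and copper and are induced by metals and oxidants, were next. Mt1 was at 7.48 and 6.41 in Glutamate, against 9.66, 10.03 and 9.19 in Galactose. The Mt1 arrays did not overlap, and the means differed by -2.68 (6.42-fold lower, standard error 0.39, adjusted p = 0.195). Mt2A was brighter, at 9.83 and 8.48 in Glutamate against 11.19, 11.63 and 11.14 in Galactose, with a difference of -2.17 (standard error 0.41, adjusted p = 0.207). Its other probe gave 6.31 and 4.87 against 8.06, 8.27 and 7.82, a difference of -2.46 (adjusted p = 0.195). The probe annotated to Mt1f read 5.58 and 4.94 in Glutamate and 8.41, 8.07 and 6.93 in Galactose, a difference of -2.54 (adjusted p = 0.205). On all 4 probes both Glutamate arrays were below every Galactose array and Glutamate 2 was the lower of the pair. Metallothionein genes are near-identical in sequence, so a probe may read RNA of more than 1 of them and the 4 probes are not independent. The other genes that handle zinc gave smaller values. Of 17 genes of the metallothionein and zinc list with a probe, 9 were tested (1 of them above 5 only in Galactose), 2 with a higher and 7 with a lower mean. The 3 lower at an unadjusted p under 0.05, where 10.2% of all probes were called lower, were Mt1, Mt2A and the zinc transporter Slc30a7, whose difference was -0.44 (adjusted p = 0.349). Mtf1, the zinc-sensing transcription factor that drives metallothionein genes, was at 5.83 and 5.73 in Glutamate and 5.62, 5.78 and 5.40 in Galactose, with overlapping arrays.

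The metallothionein promoters are shown because Mtf1 acts through metal response elements. The pattern searched was TGCNCNC, which is looser than the usual core TGCRCNC, where R is A or G. Some matches, such as GAGAGCA in Mt1 and GAGGGCA in Mt2A, fit only the looser pattern, so the counts below are not counts of that core. From RefSeq (GRCr8), the 250 bases before and 50 after the start of each gene were searched on both strands, counting matches that overlap, and capitals mark the matches. The Mt1 window is chr19:10832926-10833225 and the Mt2A window chr19:10838659-10838958, both on the minus strand, written 5′ to 3′ along the gene.
Mt1: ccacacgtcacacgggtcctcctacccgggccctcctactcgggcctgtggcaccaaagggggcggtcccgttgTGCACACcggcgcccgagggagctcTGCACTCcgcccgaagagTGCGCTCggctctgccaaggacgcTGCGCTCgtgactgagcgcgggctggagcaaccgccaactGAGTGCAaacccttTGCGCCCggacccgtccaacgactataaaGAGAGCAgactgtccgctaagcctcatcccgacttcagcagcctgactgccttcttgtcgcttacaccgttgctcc
Mt2A: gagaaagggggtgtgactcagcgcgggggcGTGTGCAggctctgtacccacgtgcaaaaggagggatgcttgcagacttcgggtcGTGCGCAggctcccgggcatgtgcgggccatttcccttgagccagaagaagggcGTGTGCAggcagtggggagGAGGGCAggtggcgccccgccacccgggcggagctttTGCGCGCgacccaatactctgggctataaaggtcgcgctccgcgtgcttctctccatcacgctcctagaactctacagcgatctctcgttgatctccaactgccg
The Mt1 window holds 7 matches and the Mt2A window 5. Of 27457 rat promoter windows of this length, 50.1% held at least 1 match, 0.652% at least 5 and 0.0983% at least 7. The window of Mt1f (chrX:37814735-37815034, minus strand) held 0, while Mt3 and Mt4, which were below the signal limit, held 5 and 4. A match describes the letters only and says nothing of a factor's presence there.

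**Figure D3:**
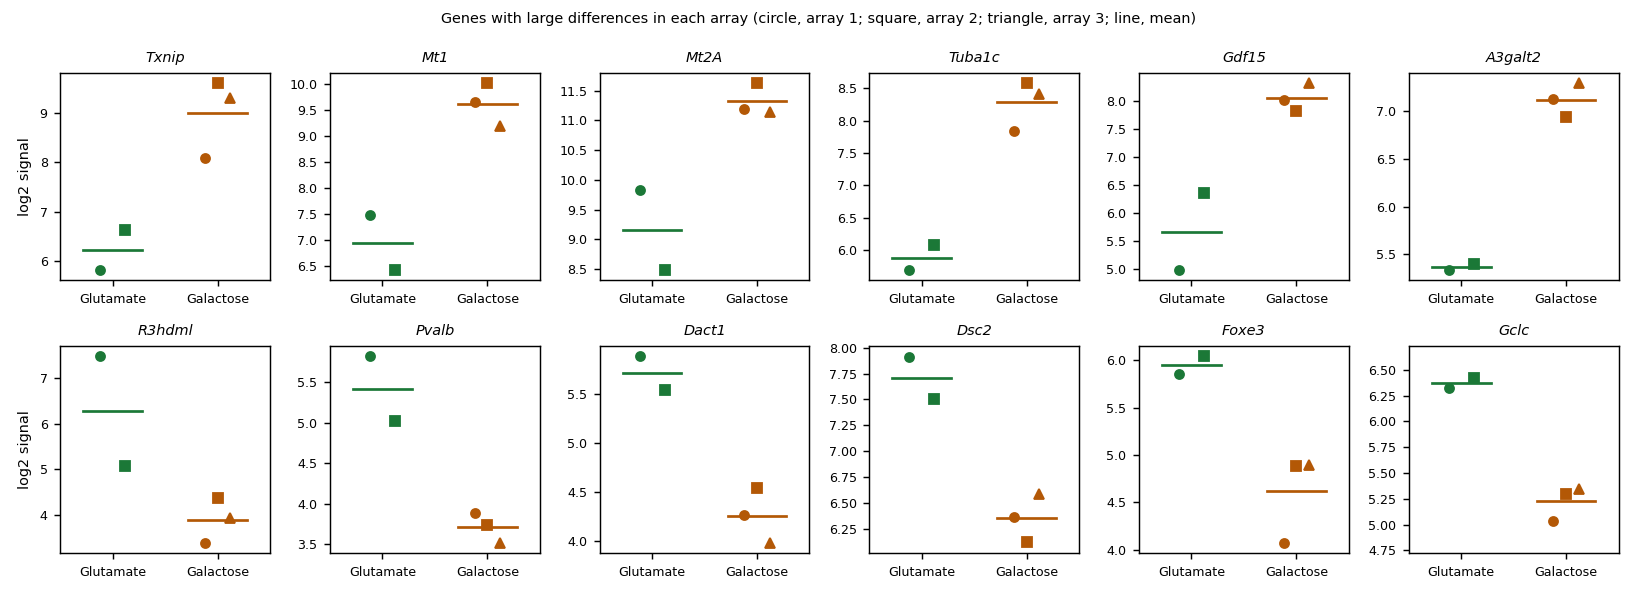
Log2 signal (vertical axis, a separate scale per gene) of 12 genes in the 2 Glutamate arrays (left, green) and the 3 Galactose arrays (right, brown), with lines at the group means. In all 12 the arrays of the groups do not overlap, from Txnip, 2.78 lower, to R3hdml, 2.39 higher in Glutamate.

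Most differences were small among the carriers and enzymes that handle glutamate itself. Of 16 genes for glutamate uptake and cystine exchange with a probe, 6 passed the signal limit, 2 of them in Galactose arrays only, with 1 higher and 5 lower means. Their median difference was -0.26, or -0.11 after the second quantile normalization and 0.02 without Glutamate 2. Slc7a11, the cystine/glutamate exchanger, read 5.47 and 4.17 in Glutamate and 3.76, 4.18 and 4.21 in Galactose. Glutamate 1 was thus above all Galactose arrays and Glutamate 2 among them (difference 0.77, standard error 0.39, adjusted p = 0.446). Its partner chain Slc3a2 was at 8.70 and 7.81 against 8.50, 8.95 and 9.0, and the glutamine and neutral amino acid carriers Slc38a2, Slc38a3 and Slc1a4 also had overlapping arrays. Slc38a1, another glutamine carrier, was the only member with an unadjusted p under 0.05, and it passed the signal limit in Galactose arrays only, which favours a lower value. It was at 4.74 and 4.02 against 5.22, 4.94 and 5.17 (difference -0.73, standard error 0.25, adjusted p = 0.349).

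Of 25 genes of glutamate, glutamine and proline metabolism with a probe, 15 were tested, 8 with a higher and 7 with a lower mean, with a median difference of 0.10 that became -0.08 without Glutamate 1. Idh3a, a subunit of the citric acid cycle enzyme isocitrate dehydrogenase, was the only one at an unadjusted p under 0.05, and the only one above 5 in Galactose arrays alone, which favours a lower value. It was at 4.49 and 4.45 in Glutamate and 4.97, 5.19 and 5.01 in Galactose, a difference of -0.59 (standard error 0.15, adjusted p = 0.269). Glud1, glutamate dehydrogenase, which makes 2-oxoglutarate from glutamate, read 6.04 in both Glutamate arrays, against 6.04, 6.32 and 6.14 in Galactose. The Glud1 difference was -0.13 (standard error 0.16) and became 0.01 after the second quantile normalization. Among aminotransferases, Got2 read 5.19 in both Glutamate arrays and in 2 Galactose arrays and 5.34 in Galactose 3, and Got1 5.05 and 5.06 against 5.29 in each Galactose array. Gls2, a glutaminase, and Idh2, a mitochondrial isocitrate dehydrogenase, were higher without overlap, with differences of 0.23 and 0.27 (adjusted p = 0.542 and 0.524). Psat1, of serine synthesis, spread from 7.75 to 8.93 in Glutamate and from 7.15 to 8.59 in Galactose. The proline enzymes Aldh18a1, Pycr1 and Pycr3 had differences of 0.29, 0.13 and 0.12, each with overlapping arrays.

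Glutathione genes went both ways. Of 26 with a probe, 13 were tested, 3 of them above 5 only in Galactose, with 5 higher and 8 lower means and a median difference of -0.11 that became 0.06 after the second quantile normalization. Gclc, the catalytic subunit of the enzyme that joins glutamate to cysteine, was the member with the smallest p. It was at 6.32 and 6.42 in the Glutamate arrays, against 5.04, 5.30 and 5.35 in the Galactose arrays. The Glutamate arrays were close together and lay above the highest Galactose array, with a difference of 1.14 (2.21-fold, standard error 0.16, adjusted p = 0.195). Its regulatory subunit Gclm was at 7.01 and 6.73 in Glutamate and 6.38, 6.75 and 6.73 in Galactose, and Gss at 6.47 and 6.14 against 5.89, 6.13 and 5.99. The differences of Gclm and Gss were 0.25 and 0.30 (adjusted p = 0.570 and 0.489), so that only the Gclc difference was large beside its error. Among genes that spend glutathione, 2 were lower at an unadjusted p under 0.05, where 10.2% of all probes were. Gpx1, glutathione peroxidase, was at 6.47 and 6.17 in Glutamate and 7.57, 7.35 and 7.21 in Galactose, a difference of -1.06 (standard error 0.18, adjusted p = 0.195). Gstm1, a glutathione transferase, was at 4.68 and 4.43 against 5.19, 5.17 and 4.80 (difference -0.50, adjusted p = 0.379). Gstm1 was above 5 in Galactose arrays only, so the signal limit favours a lower value. Glrx5 was also lower without overlap, at a difference of -0.40 (adjusted p = 0.424). Gpx3, Gpx4, Gstp1, Mgst1, Gsto1 and Glrx3 overlapped between the groups, and so did Chac1, which degrades glutathione.

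Of 17 tested Nrf2 and antioxidant genes, 7 had a higher and 10 a lower mean, and 1 and 4 of them had an unadjusted p under 0.05, where 2.14% of all probes were called higher and 10.2% lower. Their median difference was -0.21. Nfe2l2, which encodes Nrf2, the transcription factor that switches on antioxidant genes, was at 6.36 and 6.51 in Glutamate and 7.23, 7.71 and 7.50 in Galactose (difference -1.05, standard error 0.19, adjusted p = 0.205). Gclc, a textbook Nrf2 target, was thus higher where Nfe2l2 was lower. Nqo1 and Blvrb were 2 of the 4 members of this list above 5 in Galactose arrays only, which favours a lower value in Glutamate. Nqo1, a quinone reductase, was at 3.64 and 4.33 against 4.48, 5.64 and 5.31 (difference -1.16, adjusted p = 0.349). Blvrb, biliverdin reductase B, was at 3.36 and 4.09 against 5.06, 5.78 and 4.30 (difference -1.32, adjusted p = 0.352). Fth1, the ferritin heavy chain, was at 10.45 and 10.65 in Glutamate and 11.10, 10.95 and 10.91 in Galactose (difference -0.44, adjusted p = 0.361). The antioxidant response element core TGACNNNGC had 0 matches on either strand in the promoter windows of Gclc, Gss, Slc7a11, Nqo1 and Txnrd1. Gclm had 1, while 12.2% of all windows held at least 1. Sequence beyond these short windows was not searched, so the 0 matches cannot show that a gene lacks the element.

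Of 16 tested genes of peroxide removal and the thioredoxin system, 2 of them above 5 only in Galactose, 2 had a higher and 14 a lower mean. At an unadjusted p under 0.05, 5 were lower and 0 higher, against 10.2% and 2.14% of all probes, and the median difference was -0.44, or -0.26 after the second quantile normalization. Txn1, thioredoxin itself, was at 9.31 and 8.65 in Glutamate and 9.96, 9.87 and 9.65 in Galactose, a difference of -0.84 (standard error 0.24, adjusted p = 0.305). Thioredoxin and the protein that binds it were thus both lower in Glutamate. Prdx3, the mitochondrial peroxiredoxin, was at 5.64 and 5.90 against 6.38, 6.51 and 6.32 (difference -0.64, adjusted p = 0.269). Msrb3, a methionine sulfoxide reductase, was at 5.45 and 4.95 against 5.57, 6.24 and 5.89 (difference -0.70, adjusted p = 0.368).

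**Figure D4:**
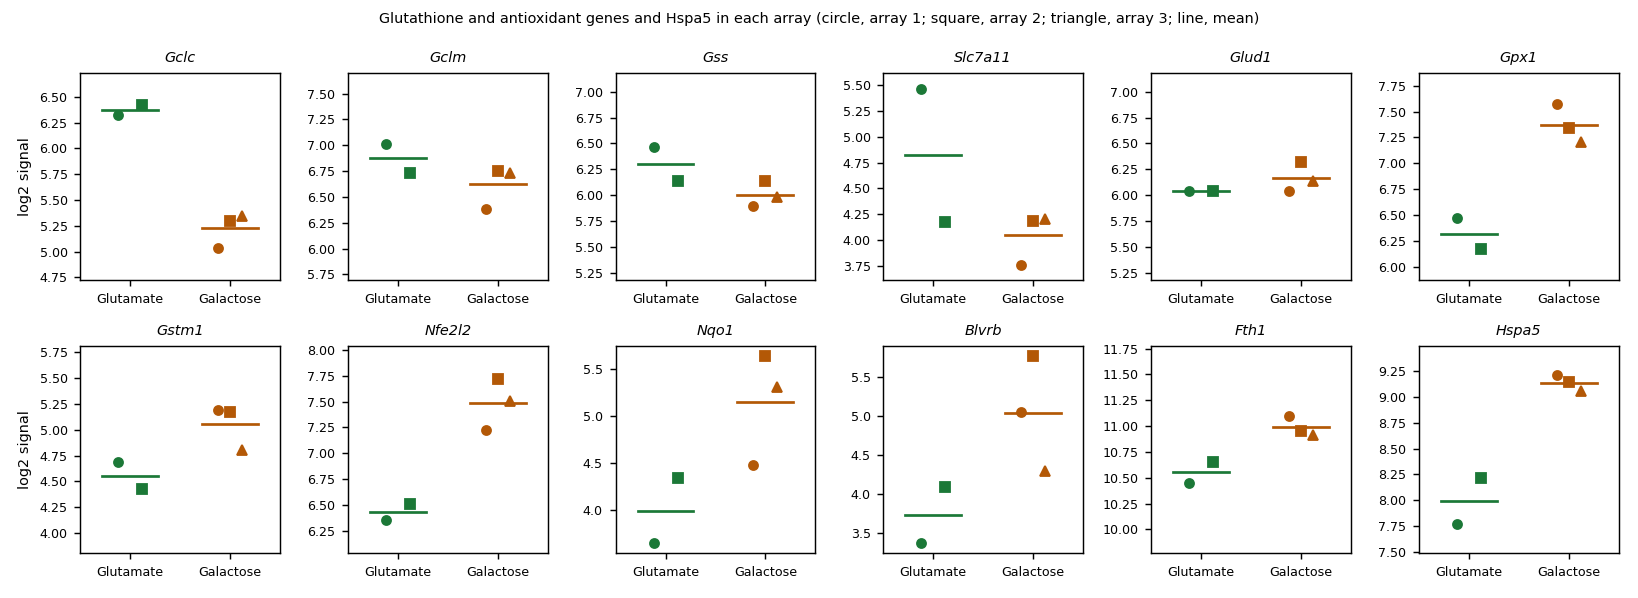
Log2 signal (vertical axis, spanning at least 2 units per gene) of 12 genes of glutathione, antioxidant defence and the ER chaperone Hspa5 in the 2 Glutamate arrays (left, green) and the 3 Galactose arrays (right, brown), with lines at the group means. Gclc lies higher in both Glutamate arrays, Gclm, Gss and Slc7a11 overlap or nearly touch, and Gpx1, Nfe2l2 and Hspa5 lie lower.

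Genes of the integrated stress response, which slows translation and acts through Atf4, did not lie on 1 side. Of 21 tested, 9 had a higher and 12 a lower mean, and the median difference of -0.12 equalled that of all probes, becoming 0.10 after the second quantile normalization. The large differences were in a few members. Ddit3 (CHOP), a transcription factor of stress-induced cell death, was at 7.22 and 7.68 in Glutamate and 9.54, 8.69 and 9.54 in Galactose, a difference of -1.81 (3.50-fold, standard error 0.32, adjusted p = 0.195). Gdf15, a secreted stress cytokine, was at 4.98 and 6.37 against 8.01, 7.82 and 8.32 (difference -2.37, standard error 0.42, adjusted p = 0.195). Ppp1r15a (GADD34), which restarts translation, was at 6.49 and 6.62 against 7.17, 7.58 and 7.36 (difference -0.81, adjusted p = 0.219). Nupr1, a stress-induced chromatin protein, lay on the other side, at 6.76 and 7.36 in Glutamate and 6.46, 6.10 and 5.66 in Galactose (difference 0.98, adjusted p = 0.330). Amino acid synthesis and charging genes that Atf4 also drives did not share the pattern of Ddit3. Asns, asparagine synthetase, spread from 6.31 to 7.47 in Glutamate around the Galactose values of 6.72 to 6.84. Of 19 tested aminoacyl-tRNA synthetases and partners, 8 had a higher and 11 a lower mean. Eprs1, which charges tRNAs with glutamate and proline, was at 7.94 and 7.51 in Glutamate and 6.91, 6.70 and 7.15 in Galactose, a difference of 0.81 (standard error 0.22, adjusted p = 0.290). Tars1, for threonine, was at 5.81 and 6.04 against 5.37, 5.49 and 5.44 (difference 0.49, adjusted p = 0.330).

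In the list of ER chaperones and the unfolded protein response, 24 of 30 genes with a probe were tested, 1 of them above 5 only in Galactose, with 2 higher and 22 lower means. Of these, 6 were lower and 0 higher at an unadjusted p under 0.05, against 10.2% and 2.14% of all probes. The median difference was -0.30, or -0.14 after the second quantile normalization. Hspa5 (BiP), the main chaperone of the ER lumen, was at 7.77 and 8.21 in Glutamate and 9.21, 9.14 and 9.06 in Galactose. The gap between the groups was larger than the range within either (difference -1.15, standard error 0.18, adjusted p = 0.195). P4hb, a protein disulfide isomerase, was at 6.94 and 7.50 against 7.70, 8.19 and 8.23 (difference -0.82, adjusted p = 0.330). The Sec61 channel subunits Sec61b and Sec61a1 had differences of -0.74 and -0.52, and Sel1l, of ER-associated degradation, -0.37. Of 27 tested cytosolic and mitochondrial heat shock chaperones, 7 had a higher and 20 a lower mean, with a median of -0.06 that became 0.13 after the second quantile normalization. Dnajb1, an Hsp40 co-chaperone, was at 7.32 and 6.86 in Glutamate and 6.34, 6.42 and 6.33 in Galactose (difference 0.73, standard error 0.19, adjusted p = 0.269).

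In the polyol and galactose pathway, 8 of 12 genes with a probe were tested and the median difference was -0.26. A3galt2, an alpha-galactosyltransferase that adds galactose to glycolipids, had the smallest p of any gene on a probe of its own. It was at 5.33 and 5.40 in Glutamate, against 7.12, 6.93 and 7.30 in Galactose. Values within each group were close, and the difference was -1.75 (3.36-fold lower, standard error 0.17, adjusted p = 0.132). The genes that use galactose as a sugar were nearer to each other. Galm, galactose mutarotase, was at 5.64 and 5.71 against 5.64, 5.97 and 6.24. Ugp2 and Galt, of the Leloir pathway and its UDP-sugar supply, had differences of -0.29 and -0.17 (adjusted p = 0.444 and 0.605). The smallest p of all probes belonged to one annotated to both Snu13, a splicing and ribosome assembly protein, and a pseudogene of it, named here after its values were seen. That probe read 5.46 and 5.71 in Glutamate and 7.27, 7.23 and 7.45 in Galactose (difference -1.73, standard error 0.16, adjusted p = 0.132).

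In the glycolysis list, the 3 smallest p belonged to monocarboxylate carriers. Slc16a6 was at 5.15 and 6.39 in Glutamate and 7.63, 7.63 and 7.87 in Galactose (difference -1.94, standard error 0.37, adjusted p = 0.206), and Slc16a1, which carries lactate and pyruvate, at 5.73 and 5.88 against 6.51, 6.50 and 6.71 (difference -0.77, standard error 0.15, adjusted p = 0.207). Slc16a14 was at 3.19 and 4.20 against 4.20, 5.24 and 5.52, and touches the Galactose range. Of the 17 tested genes of the list, 3 of which passed only through the Galactose arrays, 3 had a higher and 14 a lower mean, with a median of -0.36.

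Genes of osmolyte handling leaned the other way, mainly in Glutamate 1. Of 11 with a probe, 8 passed the signal limit, 2 of them only through the Glutamate arrays, and 6 of the 8 had a higher mean, with a median difference of 0.41. Against the Galactose mean, the list median was 0.35 in Glutamate 1 and 0.04 in Glutamate 2. Mip (aquaporin 0), the water channel of fibre cells, was at 11.36 and 11.46 in Glutamate and 10.96, 10.81 and 10.89 in Galactose. The difference of Mip was 0.52 (standard error 0.14, adjusted p = 0.299). Aqp1, the epithelial water channel, read 5.24 in both Glutamate arrays, against 4.34, 5.13 and 4.85, and Aqp5 6.62 and 5.72 against 5.72, 5.64 and 5.72. Nfat5, the transcription factor of the hypertonic response, overlapped, at 5.18 and 4.40 against 3.90, 4.43 and 4.83. Akr1b1, aldose reductase, which is also in the polyol list, had a lower mean with overlapping arrays. It was at 9.26 and 8.49 against 8.80, 9.37 and 9.31 (difference -0.28, standard error 0.30).

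Cell cycle genes were mostly below the signal limit. Of 43 with a probe, 31 were at or below 5 in every array and 12 were tested, 3 of which passed only through the Galactose arrays, which favours a lower value in Glutamate. All 12 had a lower mean, as 66.1% of all probes did, and 7 had an unadjusted p under 0.05, where 10.2% of all probes were called lower. Their median difference was -0.75, or -0.61 after the second quantile normalization. The 7 include Tuba1c, an alpha-tubulin, which like Stmn1 of this list is also counted among the tubulin and microtubule genes below. Pcna, the sliding clamp of DNA replication, was at 5.22 and 5.43 in Glutamate and 6.94, 6.69 and 6.58 in Galactose (difference -1.41, standard error 0.18, adjusted p = 0.163). Mki67, a marker of cycling cells, was at 3.80 and 3.91 against 5.02, 4.97 and 5.76 (difference -1.40, adjusted p = 0.207). Rrm2, which makes deoxynucleotides, was at 2.41 and 3.62 against 4.25, 5.46 and 5.59 (difference -2.08, standard error 0.53, adjusted p = 0.269). Both Mki67 and Rrm2 were below 5 in Glutamate and near 5 in Galactose, at the dim end of the scale. Hmgb2, a chromatin protein, was at 5.60 and 6.10 against 6.45, 6.65 and 6.96 (difference -0.84, adjusted p = 0.304).

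Histone genes lay low as well. Of 37 with a probe, 23 were tested, 4 of them above 5 only in Galactose, with 1 higher and 22 lower means, and 12 of the lower ones had an unadjusted p under 0.05, where 10.2% of all probes were called lower. The list's median was -0.74, or -0.56 after the second quantile normalization. H2ax, the variant that is phosphorylated at DNA breaks, was at 4.63 and 4.51 in Glutamate and 5.80, 5.98 and 5.68 in Galactose (difference -1.25, standard error 0.16, adjusted p = 0.171). H3f3b, a replication-independent histone H3.3 gene, was at 8.89 and 9.57 against 10.62, 11.01 and 10.81 (difference -1.58, standard error 0.25, adjusted p = 0.195). The list thus holds histones made outside S phase as well as clustered ones such as Hist2h2bb, H2bc12 and Hist1h2bq, with differences of -0.99, -0.86 and -1.05. Histone genes are close copies and share probe sequence, so single members are uncertain. Of the 15 tested cell death and p53 genes, 3 had a higher and 12 a lower mean, where 66.1% of all probes were lower. The median was -0.19, or -0.04 after the second quantile normalization. Only 3 were lower at an unadjusted p under 0.05, where 10.2% of all probes were. They were Siva1 (7.64 and 6.47 against 8.46, 8.34 and 8.37), Bak1 (5.04 and 4.52 against 5.61, 5.50 and 5.43) and Mdm2 (5.73 and 5.94 against 6.30, 7.74 and 7.12). The adjusted p of Siva1, Bak1 and Mdm2 was 0.269, 0.296 and 0.349, and Cdkn1a, the p21 inhibitor, had overlapping arrays. Ccng1 of the same list was higher without overlap, at 11.31 and 11.08 against 10.26, 10.96 and 11.05 (difference 0.44, adjusted p = 0.511).

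Cytoskeletal genes held several of the largest differences. Tuba1c, an alpha-tubulin, was at 5.68 and 6.07 in Glutamate and 7.84, 8.58 and 8.42 in Galactose, a difference of -2.40 (5.29-fold lower, standard error 0.27, adjusted p = 0.163). Acta1, skeletal alpha-actin, was at 4.35 and 4.56 against 5.82, 6.35 and 7.62 (difference -2.14, standard error 0.52, adjusted p = 0.259). Tubulin and actin genes have near-identical copies, so these probes may read other members too. Of 15 tested tubulin and microtubule genes, 2 of them above 5 only in Galactose, 5 had a higher and 10 a lower mean. Among all probes, 66.1% had a lower mean. The tubulin and microtubule list had a median difference of -0.29, which became -0.09 after the second quantile normalization. Tuba1b, Tubb2a and Tubb3 had differences of -0.95, -1.41 and -1.58. Tubb3 was above 5 in Galactose arrays only, which favours a lower value. Tubb5 and Tubb6 overlapped between the groups, with differences of -0.70 and -0.14. Tbcb and Map4 were higher without overlap, by 0.24 and 0.22. Of 38 tested actin and Srf target genes, 4 of them (Acta1 among these) above 5 only in Galactose, 7 had a higher and 31 a lower mean. At an unadjusted p below 0.05, 11 were lower and 0 higher, against 10.2% and 2.14% of all probes, and the median was -0.46, or -0.30 after the second quantile normalization. Csrp1, a LIM protein of actin bundles, was at 4.55 and 5.65 in Glutamate and 6.73, 6.80 and 6.89 in Galactose (difference -1.70, standard error 0.33, adjusted p = 0.207). Myl12a, a myosin light chain, was at 7.37 and 7.46 against 8.21, 8.52 and 8.58 (difference -1.02, standard error 0.17, adjusted p = 0.195). Actn1 and Tpm4, which bind actin filaments, had differences of -0.95 and -0.68. Annexins and S100 proteins were similar, with 2 higher and 10 lower means of 12 tested, 3 of which were above 5 only in Galactose. S100a1 was at 5.67 and 4.06 against 7.43, 6.38 and 7.09 (difference -2.10, adjusted p = 0.269), and Anxa1 at 6.89 and 7.03 against 7.66, 7.75 and 7.79 (difference -0.78, standard error 0.15, adjusted p = 0.206).

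Mesenchymal and fibrosis genes, which mark epithelial cells that turn fibroblast-like, were spread on both sides, with 5 higher and 9 lower means of 14 tested and a median of -0.10 that became 0.01 after the second quantile normalization. Tgfb3, a transforming growth factor, was at 5.59 and 6.90 in Glutamate and 5.10, 4.97 and 4.84 in Galactose (difference 1.27, standard error 0.38, adjusted p = 0.323). Tgfb2 lay on the other side, at 5.99 and 6.23 against 6.46, 6.41 and 6.71 (difference -0.41, adjusted p = 0.409). Timp1, a protease inhibitor, overlapped, at 9.04 and 7.87 against 9.03, 10.11 and 10.50. Des, desmin, the muscle filament protein, was the only fibroblast and smooth muscle marker above 5, at 6.23 in Glutamate 1 but 4.48 in Glutamate 2, and 4.24, 3.93 and 4.12 in Galactose. Of the defining fibroblast and smooth muscle markers, Col1a1, Dcn and Myh11 stayed under 3 in all 5 arrays.

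Few genes of cytokine and early response signalling passed the signal limit, and part of those passed it in Galactose arrays only, which favours a lower value. Of 33 Stat3, cytokine and acute phase genes with a probe, 11 were tested, 3 of them above 5 only in Galactose, with 1 higher and 10 lower means. Stat3, the transcription factor of interleukin 6 type cytokines, was at 6.06 and 6.59 in Glutamate and 7.45, 7.70 and 7.77 in Galactose (difference -1.32, standard error 0.22, adjusted p = 0.195). Nfkbia and Nfkb1, of the NF-kappaB pathway, had differences of -0.65 and -0.56. Of 27 immediate early genes with a probe, 15 were tested, 4 of them above 5 only in Galactose, with 2 higher and 13 lower means and a median of -0.62. Klf6 was at 5.19 and 5.42 against 5.94, 6.21 and 5.96 (difference -0.73, adjusted p = 0.245), and Jun, an AP-1 subunit, at 5.73 and 4.93 against 5.94, 6.28 and 6.57 (difference -0.93, adjusted p = 0.342). Of 32 interferon and antigen presentation genes with a probe, 28 were not above 5 in any array. The 4 tested, 2 of them above 5 only in Galactose, were B2m, the light chain of class I molecules, at 7.82 and 8.94 against 9.24, 9.28 and 9.62, the interferon targets Gbp5 and Ifi27, with differences of -1.77 and -1.67, and the proteasome subunit Psmb10, whose arrays overlapped. Cd68, the only leukocyte marker above 5, was at 4.73 and 5.16 against 4.52, 4.96 and 4.45, and the other 13 stayed at or below 5 in every array. Their part in these values was not tested.

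**Figure D5:**
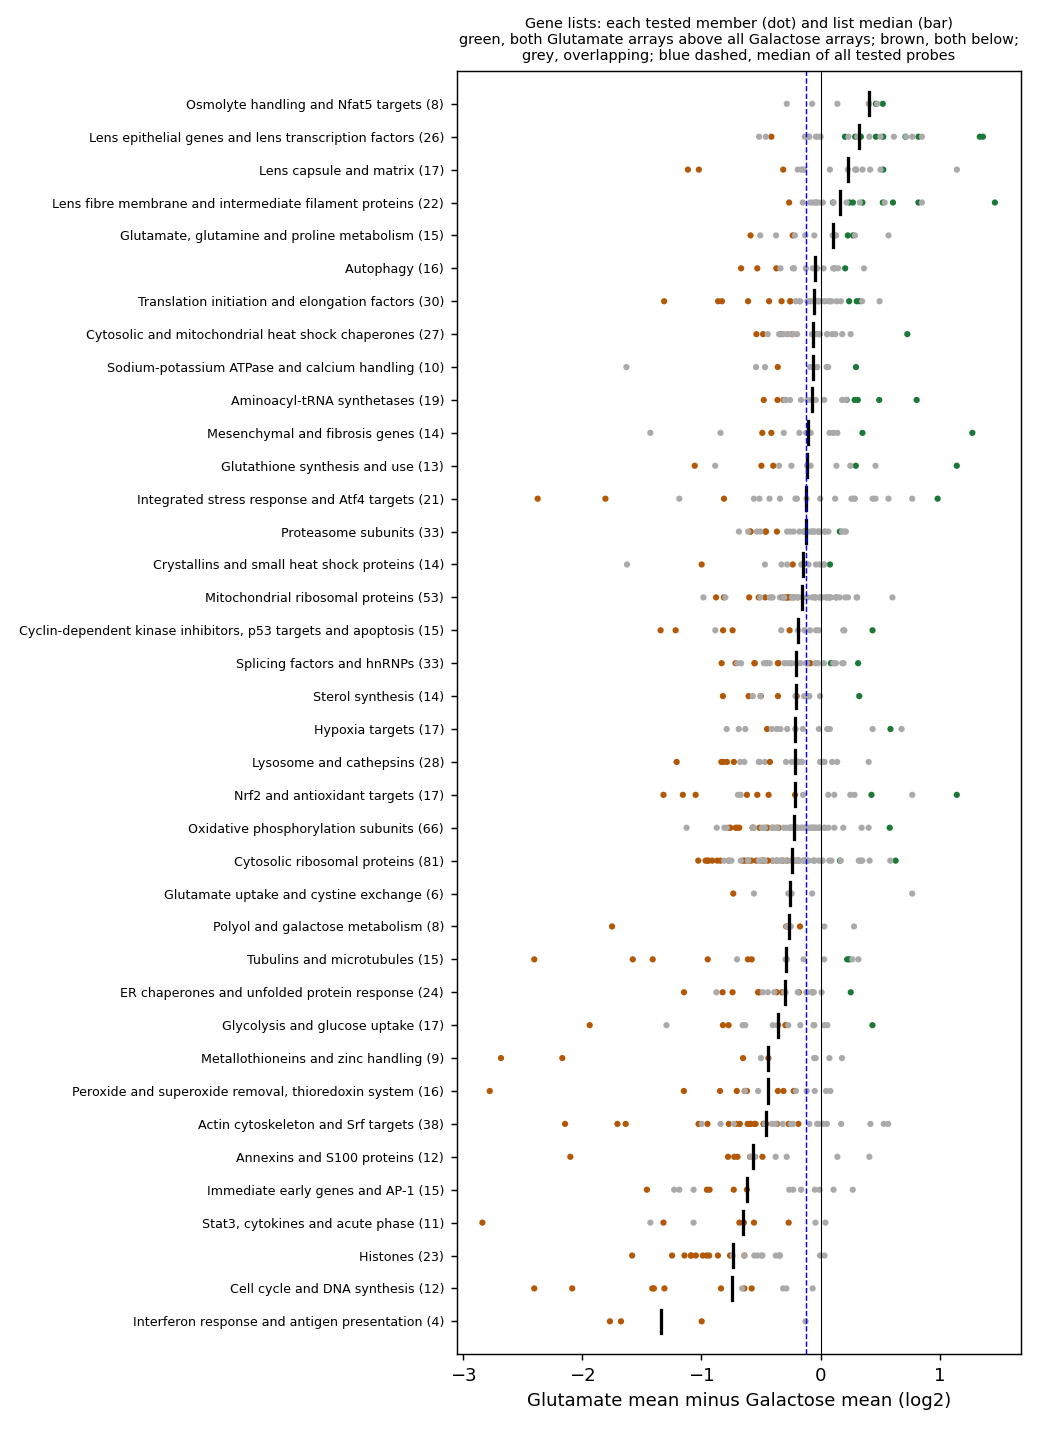
Difference between the Glutamate and Galactose means (log2, horizontal axis) of every tested gene (dots) in each gene list (rows, number of tested genes in brackets), with the list median as a black bar and the median of all tested probes as a dashed line at -0.12. Osmolyte, lens epithelial, lens capsule and lens fibre lists lie at the top, with medians up to 0.41. The crystallin list lies near the dashed line, and cell cycle, histone and interferon lists lie at the bottom.

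Lens genes other than the crystallins leaned towards higher values in Glutamate. The fibre and epithelial lists share members, and Prox1 and Maf are called higher in both. Mip is counted in the fibre list and in the osmolyte list above. Of 22 tested genes for fibre membrane and filament proteins, 15 had a higher and 7 a lower mean, 4 were called higher without adjustment, where 2.14% of all probes were, and the median was 0.16, or 0.33 after the second quantile normalization. Prox1, a transcription factor needed for fibre elongation, was at 8.08 and 7.88 in Glutamate and 6.97, 7.21 and 7.30 in Galactose (difference 0.82, standard error 0.17, adjusted p = 0.207). Nrcam, a cell adhesion molecule of fibres, was at 8.23 and 6.88 against 6.17, 5.71 and 6.39 (difference 1.46, standard error 0.43, adjusted p = 0.314). Maf, which drives crystallin genes, was at 10.24 and 9.50 against 8.70, 8.85 and 9.50, with Glutamate 2 level with Galactose 3. Other fibre proteins had smaller differences. Lim2 was at 11.46 and 11.59 against 11.54, 11.49 and 11.54, Bfsp1 at 11.57 and 11.72 against 11.20, 11.52 and 11.48, and Vim at 12.20 and 11.94 against 11.35, 12.25 and 12.29. The Lim2 and Vim arrays overlapped, and Bfsp1 had a difference of 0.24 (standard error 0.17, adjusted p = 0.540) without overlap.

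Of 26 tested lens epithelial genes and transcription factors, 3 of which passed only through the Glutamate arrays, 18 had a higher and 8 a lower mean, and the median was 0.32. Foxe3, the transcription factor that maintains the lens epithelium, was at 5.85 and 6.05 in Glutamate and 4.07, 4.89 and 4.89 in Galactose. Galactose 1 was the lowest array for Foxe3, and the difference was 1.34 (standard error 0.29, adjusted p = 0.219). Mab21l1, needed for lens formation in mice, was at 6.78 and 5.76 against 4.17, 5.75 and 4.79 (difference 1.36, adjusted p = 0.379). Galactose 1 also had the lowest Fgfr2, a receptor of the growth factors that drive fibre formation, at 7.87 and 7.94 against 6.56, 7.40 and 7.62 (difference 0.71, adjusted p = 0.429). Epithelial and pan-lens genes that did not follow were Pax6, at 7.03 and 7.19 against 6.39, 7.52 and 7.49, Cdh1, at 7.73 and 7.19 against 6.97, 8.30 and 8.49, and Gja1, at 7.22 and 6.49 against 5.65, 7.79 and 7.40. In these 3 genes Galactose 1 was again the lowest of the 5 arrays, and the Glutamate arrays lay within the Galactose range.

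For the crystallins, the bulk proteins of the lens, the measured differences were small. Of 14 tested crystallins and small heat shock proteins, 3 had a higher and 11 a lower mean, where 66.1% of all probes were lower. The median was -0.15, or -0.05 after the second quantile normalization. Cryab was at 13.07 and 13.03 in Glutamate and between 12.90 and 13.01 in Galactose, Cryba1 at 13.14 in both against 13.15, 13.11 and 13.09, and Crygs at 12.59 and 12.51 against 12.51, 12.52 and 12.53. Values near 13 are close to the highest signal on the arrays, 13.5. Crygb, a gamma crystallin, had the largest difference of the crystallins proper with non-overlapping arrays, at -0.23 (adjusted p = 0.518). The small heat shock proteins were less even. Hspb6 was at 5.96 and 5.69 against 6.55, 7.49 and 6.41 (difference -1.0, adjusted p = 0.352), while Hspb1 overlapped, at 9.81 and 9.03 against 9.81, 9.96 and 9.89. Of 17 tested capsule and matrix genes, 10 had a higher and 7 a lower mean. Tinagl1 and Nid2, of basement membranes, had differences of -1.11 and -1.02 (adjusted p = 0.259 and 0.345), and Col4a4, a lens capsule collagen, 0.53 (adjusted p = 0.438). Both Tinagl1 and Nid2 were above 5 in Galactose arrays only, which favours a lower value.

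The remaining genes with the largest higher values were of several kinds. R3hdml, a putative serine protease inhibitor, had the largest difference of 2.39 (standard error 0.72, adjusted p = 0.323), at 7.49 and 5.06 in Glutamate against 3.37, 4.37 and 3.92 in Galactose. The pair of Glutamate arrays was 2.43 apart for R3hdml, more than the difference itself. Pvalb, the calcium buffer parvalbumin, was at 5.83 and 5.01 against 3.88, 3.73 and 3.51 (difference 1.72, standard error 0.27, adjusted p = 0.195). Dact1, a modulator of Wnt signalling, was at 5.89 and 5.54 against 4.26, 4.54 and 3.98 (difference 1.45, standard error 0.22, adjusted p = 0.195). Dsc2, a desmosomal cadherin, was at 7.91 and 7.51 against 6.37, 6.12 and 6.58 (difference 1.35, standard error 0.21, adjusted p = 0.195). Pvalb, Dact1 and Dsc2 had small standard errors beside their differences, but Pvalb and Dact1 passed the signal limit in Glutamate arrays only, which favours a higher value. Car2, a carbonic anhydrase, was the most even of the genes with the smallest p, at 6.93 and 6.99 in Glutamate and 6.04, 5.86 and 6.08 in Galactose (difference 0.96, standard error 0.15, adjusted p = 0.195). Dync1i1, a dynein chain, was at 6.21 and 5.80 against 4.69, 4.70 and 4.88 (difference 1.25, adjusted p = 0.195). Spry3, a receptor kinase signalling inhibitor, Psapl1, Vit, Herc1 and Rhobtb2 made up the rest of the 15, with differences of 1.62, 1.51, 1.43, 1.34 and 1.27. Spry3 was far higher in Glutamate 1 (6.25) than in Glutamate 2 (4.55), and Psapl1 the other way (6.77 and 8.07). R3hdml, Dync1i1, Spry3 and Herc1 were also above 5 in Glutamate arrays only, so for them too the limit favours a higher value.

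Among the remaining large lower values, Tmem140 was at 6.11 and 5.70 in Glutamate and 7.42, 8.49 and 7.91 in Galactose (difference -2.03, standard error 0.33, adjusted p = 0.195). Dynll1l1 was at 7.065 and 7.13 against 8.82, 8.50 and 8.40 (difference -1.48, standard error 0.18, adjusted p = 0.163). Prtfdc1 was at 3.58 and 3.89 against 5.36, 5.04 and 5.20 (difference -1.47, standard error 0.18, adjusted p = 0.163). Prtfdc1 was above 5 in Galactose arrays only, which favours a lower value. Imp3, a protein of ribosome assembly, was at 6.05 and 4.09 against 6.89, 7.04 and 6.99 (difference -1.91, adjusted p = 0.306), so that Glutamate 2 set most of it. Serf1 was also lower mainly in Glutamate 2, at 6.72 and 4.91 against 7.56, 7.09 and 6.81. Pdpn, podoplanin, a membrane glycoprotein, was lower mainly in Glutamate 1, at 7.36 and 9.09 against 9.32, 9.54 and 9.79.

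Lists of house-keeping machinery had medians nearer to the common shift. Of 81 tested cytosolic ribosomal protein genes, 14 had a higher and 67 a lower mean, with a median of -0.24 that became -0.03 after the second quantile normalization. Rplp2, of the ribosomal stalk, was at 9.53 and 9.12 in Glutamate and 10.29, 10.35 and 10.18 in Galactose (difference -0.95, standard error 0.18, adjusted p = 0.207), while Rps3a was at 6.05 and 6.31 against 5.69, 5.42 and 5.53 (difference 0.63, adjusted p = 0.290). Ribosomal protein genes have many processed copies in the genome, so their probes may be shared. Of 66 tested oxidative phosphorylation subunits, 8 had a higher and 58 a lower mean, with a median of -0.22 that became -0.06. Ndufs5 and Sdhd, of complexes I and II, had differences of -0.77 and -0.71 (adjusted p = 0.207 and 0.259), and Atp5pd, of ATP synthase, 0.58 (adjusted p = 0.314). Of 14 tested sterol synthesis genes, 3 of which passed only through the Galactose arrays, 1 had a higher and 13 a lower mean, with Msmo1 and Insig1 at differences of -0.60 and -0.50. The 28 tested lysosome genes had 6 higher and 22 lower means, and Ctsl, cathepsin L, was at 8.44 and 9.75 against 10.18, 10.37 and 10.35.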

How the data were processed

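RNA of whole rat lenses was measured on GeneChip Rat Gene 2.0 ST arrays, 1 per sample. Per probe, the authors deposited a log2 signal from Robust Multi-array Average normalization of the 7 arrays; no scanner files were used here. The number of arrays limits the precision. Probes were named from the platform annotation: 18511 have 1 gene, 575 several and 17599 none, and 0 symbols changed through the gene ID. Probes with a gene and a signal above 5 in at least 1 of the 5 arrays were kept. The test was limma (3.58.1, R 4.3.3) on the 5 arrays (3 residual and 2.87 prior degrees of freedom), with Benjamini-Hochberg adjustment over 4949 probes and a threshold of 0.05, and the test was tested on simulated data. The methods state fold rules on group means and no test. Tables were made with Python 3.11.15, numpy 2.4.6 and pandas 2.3.3.

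Named genes were drawn by the following rules, and not all genes so drawn are described. At an unadjusted p under 0.05 without overlap, they were the 15 with the largest difference and the 5 with the smallest p in each direction. Up to 5 members of each list with the smallest p were added, and any tested member of the glutamate, glutathione and metallothionein lists. Last came the 6 with the widest gap between the Glutamate arrays at an unadjusted p under 0.05. Lcn2, the Snu13 probe, Akr1b1, Ccng1, Txnrd1, Tubb5, Tubb6, Tbcb and Map4 stand outside these rules and were named after their values were seen. The same holds for cell type markers, and most crystallins, fibre and epithelial genes. The brightest probe of a gene was used. The comparison and the 44 lists were chosen with earlier results of these data known; 5 list entries matched no gene. Promoter windows are RefSeq sequences (GRCr8).

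Alternatives were other signal limits, a second quantile normalization, median centring, a trended robust variance, array weights, the Control arrays in the fit, 1 probe per gene, the replicate number as a block, and leaving out each array. Opacity and RT-qPCR were not analysed here.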

Additional observations from a re-analysis of the deposited data

How the results depend on the processing

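With limma, the count of probes with an adjusted p under 0.05 was 0 as reported and under all 14 alternatives, with 612 at an unadjusted p under 0.05 as reported and a smallest adjusted p between 0.0815 (trended robust variance) and 0.689 (without Galactose 2). The 106 probes higher at an unadjusted p under 0.05 became 58 with the Control arrays in the fit, 265 with median centring, 526 without a signal limit and 328 after a second quantile normalization, and 54 (without Galactose 2) to 272 (without Glutamate 2) when 1 array was left out. The 506 lower became 233, 329, 858 and 280 under the same 4 settings, and 277 (without Galactose 2) to 781 (without Glutamate 1) when 1 array was left out, with 288 without Galactose 3. The 33.9% of higher means became 48.9% with median centring, 50.7% without a signal limit and 52.2% after the second quantile normalization, and 31.7% to 41.8% when 1 array was left out. With the replicate number as a block, 74 probes were higher and 294 lower. The labels do not say that a number marks a shared animal or day, so the numbers were not taken as pairs. Same-numbered arrays deviated from their group means with correlations of -0.0328 and 0.0563. With 2 Glutamate arrays their deviations mirror each other, so these correlations cannot decide whether the arrays are paired. Of 40 list medians, 10 turned sign after the second quantile normalization, 7 with median centring, and 0 to 3 when 1 array was left out: glutamate metabolism and capsule without Glutamate 1, glutamate uptake, integrated stress response and aminoacyl-tRNA synthetases without Glutamate 2, capsule without Galactose 1, and hypoxia without Galactose 3. The 37 genes of the largest differences, smallest p or widest gap turned sign under no alternative run. They were picked from these same arrays and their groups do not overlap. Leaving out 1 array could therefore not turn their sign. The cause of these moves was not tested. With 1 Glutamate array left out, the other is taken to vary as the Galactose arrays do.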

Other observations

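Some genes differed more between the Glutamate arrays than between the groups, and these are named after their values were seen. Emp1, an epithelial membrane protein, was at 3.80 and 9.05 in Glutamate 1 and 2, and at 6.07, 6.48 and 4.66 in Galactose. Cd55, which protects cells from complement, was at 4.71 and 8.80 in Glutamate, and at 6.00, 7.56 and 5.68 in Galactose. C2cd4b was at 4.29 and 7.10 in Glutamate, and at 4.75, 5.25 and 5.07 in Galactose. In all 3 genes Glutamate 2 was the higher of the pair and the group means differed by less than the gap within the Glutamate group. Glutamate 2 was at least 2-fold below every other array in 84 probes and above in 9, Glutamate 1 in 38 and 20, and the Galactose arrays in 0 to 19 and 2 to 16.

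Many probes carry exactly the same value in several arrays. Of the 4949 tested probes, 1335 (27.0%) had equal values in at least 2 of the 5 arrays, 212 (4.28%) in both Glutamate arrays and 605 (12.2%) in at least 2 Galactose arrays. Glud1 read 6.04 in both Glutamate arrays and in Galactose 1, and Got2 5.19 in 4 of the 5 arrays. Such ties lower the measured spread of a probe, and 20 of the 612 probes at an unadjusted p under 0.05 (3.27%) have one.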
